A study of Mus musculus with 7 samples.

Results

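Levels of Tgfb1, the 3 receptor genes Tgfbr1, Tgfbr2 and Tgfbr3, the Smad genes Smad2, Smad3, Smad4, Smad6 and Smad7, and the co-repressor gene Skil were compared between haematopoietic stem cells (HSCs) that had lost Mettl3 and control HSCs. These 10 genes were taken by symbol from the 23038 genes of the deposited table, and each of the 10 had 1 row with reads. Mettl3 is the catalytic subunit of the nuclear complex that writes N6-methyladenosine (m6A), and the study asked which transcripts differ in HSCs after its loss. The mutants were Mx1-cre; Mettl3 fl/fl mice of the C57BL/6 strain (4 libraries), and the controls were Cre-negative littermates (3 libraries). Mutants and controls alike were given 10 µg of pIpC on 5 occasions, and marrow was taken 10 days after the last injection; pIpC mimics double-stranded RNA and switches on the Mx1 promoter through interferon. Mx1-cre is not restricted to HSCs, so other blood cells and interferon-responsive cells of the mutants can also have lost the gene. Each library was made with Smart-seq2, a full-length cDNA method for few cells, from 150 sorted lineage-negative, Sca1+, cKit+, CD150+, CD48- cells of adult hindlimb marrow.

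The values are RPKM (reads scaled to gene length and library size), with 1 deposited value per gene for the 4 mutant libraries together and 1 for the 3 control libraries together. No value per animal was used here, so no difference below has a replicate check, an error or a p-value, and "higher" and "lower" compare 2 numbers. Of the 23038 genes, 14539 had reads, and their median log2 difference (mutant over control) was 0.02. Mettl3 itself, which checks the labels, was at 9.60 RPKM in mutants and 49.8 RPKM in controls, 19.3% of the control value. Defining HSC genes were present in both groups, with Slamf1 (CD150) at 27.1 RPKM in mutants and 25.9 RPKM in controls, Ly6a (Sca1) at 167 and 152 RPKM in mutants and controls, and Kit at 39.9 and 67.4 RPKM in mutants and controls. Cd48, which the sort excludes, was at 4.04 RPKM in mutants and 5.33 RPKM in controls, and the lineage genes Cd3e, Cd8a and Cd79a had no reads in either group. Others that the sort excludes had reads, among them the myeloid integrin gene Itgam, at 1.65 RPKM in mutants and 0.727 RPKM in controls, and Cd4, at 0.0856 RPKM in mutants and 0.442 RPKM in controls. Of 6 markers of T and natural killer cells with a row in the data, 3 had reads, and their sum of 64.2 RPKM in mutants and 127 RPKM in controls was nearly all Nkg7, a granule protein gene, at 62.3 RPKM in mutants and 124 RPKM in controls. Stromal and endothelial markers summed to 2.10 RPKM in mutants and 2.60 RPKM in controls over 7 genes, with Lepr without reads.

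TGF-beta signalling starts when an active TGF-beta dimer binds the type II receptor Tgfbr2, which phosphorylates the type I receptor Tgfbr1. Tgfbr1 then phosphorylates Smad2 and Smad3, and these enter the nucleus with Smad4 to regulate transcription. Smad6 and Smad7 inhibit the route at the receptor or at the Smads, and Skil (SnoN) represses Smad-driven transcription in the nucleus. In bone marrow the pathway is known for holding HSCs in quiescence, and megakaryocytes and non-myelinating Schwann cells are known as sources of the ligand or of its activation.

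Of the 10 genes, 9 were higher in the mutant value and 1, Smad3, was lower. Across all genes with reads the share that was higher in mutants by any amount was 52.6%, and among genes with a mean level of 0.5 to 15 RPKM, a band that spans the 10 genes, it was 51.7%. The median log2 difference of the 10 genes was 0.41, with 1 RPKM added to both values. None of the 10 was 2-fold apart on that scale, against 7.14% of all genes with reads and 12.0% of those of similar level. At 1.5-fold, 2 of the 10 were higher, Tgfb1 and Smad4, against 13.0% of all genes, and 1 was lower, Smad3, against 10.4% of all genes. In the band of similar level the shares 1.5-fold higher and lower were 17.1% and 15.3%. In either direction 3 of the 10 were 1.5-fold apart, against 23.4% of all genes with reads and 32.4% of those of similar level, so the members' share was near that of genes of their level. From the values as deposited, with nothing added, 2 of the 10 were 2-fold apart, against 25.1% of all genes with reads and 25.3% of those of similar level.

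**Figure D1:**
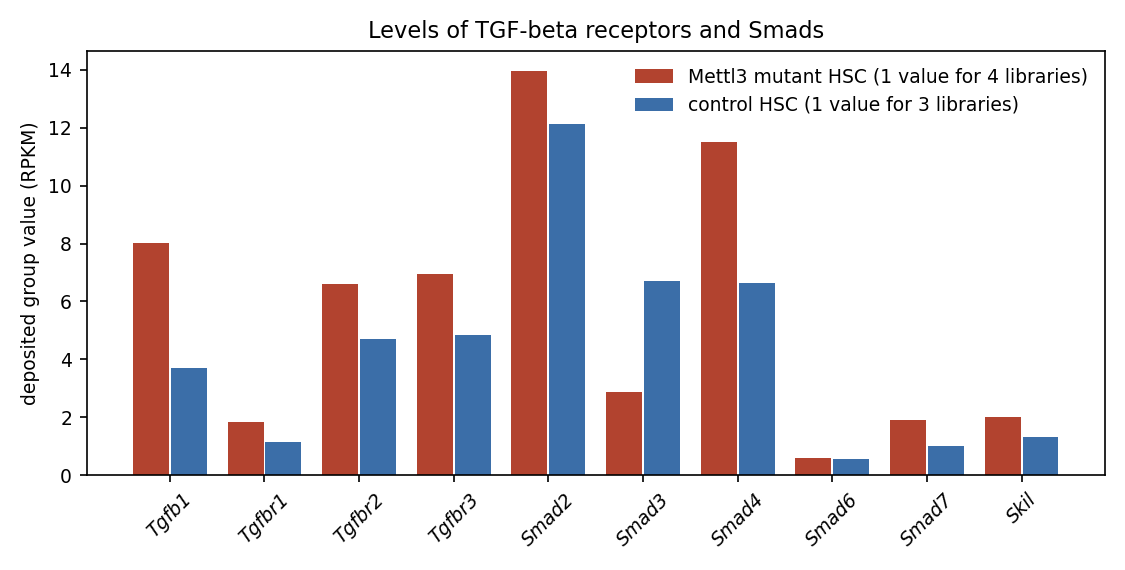
Deposited group value in RPKM (vertical axis, from 0) of each of the 10 genes, with mutant HSCs as the left bar and control HSCs as the right bar of each pair; there are no error bars because each bar is 1 deposited number. Smad2 is the highest bar in both groups, at 13.96 RPKM in mutants and 12.1 RPKM in controls, and Smad3 is the only pair with the lower bar on the mutant side.

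The 2 genes farthest apart were Tgfb1, upward, and Smad3, downward, and the letters around their starts are shown for that reason. Promoter windows of 250 bases before to 50 bases after the annotated start were in RefSeq's table (GRCm38.p6, the assembly that mm10 names) for 5 of the 10 genes. Capitals mark GGGCGG on either strand (CCGCCC on the other), the core of the box that factors of the Sp family bind.
Tgfb1 promoter, chr7:25686752-25687051, plus strand: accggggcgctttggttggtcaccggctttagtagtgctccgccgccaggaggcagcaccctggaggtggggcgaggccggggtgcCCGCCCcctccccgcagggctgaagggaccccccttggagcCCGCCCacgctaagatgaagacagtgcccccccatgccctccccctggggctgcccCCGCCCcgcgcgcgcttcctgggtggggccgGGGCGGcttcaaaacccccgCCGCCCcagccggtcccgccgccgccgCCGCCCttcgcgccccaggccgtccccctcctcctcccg
Smad3 promoter, chr9:63757945-63758244, minus strand: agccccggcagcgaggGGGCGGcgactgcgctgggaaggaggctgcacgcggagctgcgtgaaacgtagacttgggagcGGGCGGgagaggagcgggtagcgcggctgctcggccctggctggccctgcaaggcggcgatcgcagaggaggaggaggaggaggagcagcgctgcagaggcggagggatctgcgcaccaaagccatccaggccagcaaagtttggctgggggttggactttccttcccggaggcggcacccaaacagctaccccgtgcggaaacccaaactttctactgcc

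The Tgfb1 window held 6 matches to GGGCGG and the Smad3 window 2, and 35.7% of the 32851 promoter windows of this length held at least 1. GC content was 77.0% in the Tgfb1 window and 67.7% in the Smad3 window. Neither window held CAGAC or its complement GTCTG, letters that Smad3 and Smad4 can bind, which were in 49.6% of all windows, nor TGANTCA, the letters of AP-1 sites, which were in 7.81%. The window of Smad6 had 4 matches to GGGCGG and that of the upstream Tgfbr1 start had 2, while the windows of the downstream Tgfbr1 start and of Tgfbr2 each had 0 matches to GGGCGG and 1 to CAGAC. A match is only a description of these letters.

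Tgfb1, the ligand gene (NCBI Gene 21803, chromosome 7, 25687002 to 25705077), was at 8.03 RPKM in mutants and 3.69 RPKM in controls. The mutant value was 2.18 times the control value, a log2 difference of 1.12 from the values as deposited and 0.95 with 1 RPKM added to both. It was the largest upward difference of the 10 genes. Its level lay at percentile 53.3 of genes with reads in mutants and at percentile 40.9 in controls. Among genes of similar level, 13.9% were at least as far apart in either direction. Platelets and megakaryocytes carry much of the body's TGF-beta 1, and of 7 markers of these cells with reads 6 were higher in mutants. The 8 listed markers summed to 238 RPKM in mutants and 221 RPKM in controls, with Pf4 at 127 RPKM in mutants and 119 RPKM in controls and Gp6 without reads. Gp9 was the lower one, at 49.9 RPKM in mutants and 56.0 RPKM in controls. Of 9 macrophage and monocyte markers, 6 of the 7 with reads were higher, and the sum was 4.88 RPKM in mutants and 2.91 RPKM in controls. These values are near the floor, with 7 of the 9 below 1 RPKM in both groups. C1qb was lower, at 0.904 RPKM in mutants and 1.87 RPKM in controls, and the defining genes Csf1r and Emr1 had no reads. Across all genes with reads, 52.6% were higher in mutants by any amount. The part of other cells in the Tgfb1 difference was not tested. In these bulk libraries, more cells of a type and more RNA per cell cannot be told apart.

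The 3 receptor genes were each higher in the mutant value, by similar steps. Tgfbr1, the type I receptor kinase (NCBI Gene 21812, chromosome 4, 47353222 to 47414926), was at 1.83 RPKM in mutants and 1.15 RPKM in controls, a ratio of 1.60. Tgfbr2, the type II receptor kinase (NCBI Gene 21813, chromosome 9, 116087695 to 116175363), was at 6.62 RPKM in mutants and 4.71 RPKM in controls, a ratio of 1.40. Tgfbr3, or betaglycan, which presents ligand to Tgfbr2 and has no kinase (NCBI Gene 21814, chromosome 5, 107106567 to 107289629), was at 6.93 RPKM in mutants and 4.86 RPKM in controls, a ratio of 1.43. The order of levels was the same in both groups, with Tgfbr3 and Tgfbr2 near each other and Tgfbr1 lowest. Per length, Tgfbr2 was at 3.61 times Tgfbr1 in mutants and 4.11 times in controls, and Tgfbr3 was at 1.05 times Tgfbr2 in mutants and 1.03 times in controls. With 1 RPKM added, the 3 log2 differences lay between 0.40 and 0.44, and among genes of similar level 44.6% were at least as far apart as Tgfbr3, the farthest of the 3. A predicted transcript, Gm43422, shares 297 exon bases (4.54%) with Tgfbr3 in GENCODE M21, and no gene shares annotated exon bases with the other 9 in that annotation.

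Of the Smads that the receptors activate, Smad2 was at similar values in both groups and Smad3 was lower in mutants. Smad2 (NCBI Gene 17126, chromosome 18) was at 13.96 RPKM in mutants and 12.1 RPKM in controls, the highest level of the 10 genes in both groups. Its log2 difference was 0.19 (1 RPKM added), and 72.7% of genes of similar level were at least as far apart. Smad3 (NCBI Gene 17127, chromosome 9, 63646766 to 63757994) was at 2.89 RPKM in mutants and 6.71 RPKM in controls. The control value was 2.33 times the mutant value, a log2 difference of -1.22 from the values as deposited and -0.99 with 1 RPKM added, just short of the 2-fold rule. Among genes of similar level, 12.4% were at least as far apart. Per length, Smad2 was at 4.84 times Smad3 in mutants and 1.81 times in controls. Smad3 made up 17.1% of the sum of both in mutants and 35.6% in controls, and that sum was 16.8 RPKM in mutants and 18.8 RPKM in controls. The Smad3 level lay at percentile 37.1 of genes with reads in mutants and at percentile 50.8 in controls.

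Smad4, the common partner of the activated Smads (NCBI Gene 17128, chromosome 18), was at 11.5 RPKM in mutants and 6.65 RPKM in controls, a ratio of 1.73 and a log2 difference of 0.71 (1 RPKM added). In mutants Smad4 was at 3.98 times Smad3, whereas in controls the pair was nearly equal, at 0.990 times. Relative to Smad2, Smad4 was at 0.823 times in mutants and 0.548 times in controls. The pattern over these 3 genes was thus a higher Smad4, a lower Smad3 and a Smad2 that differed least.

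The 3 inhibitors were each at or below 2.02 RPKM in both groups, as was Tgfbr1. Smad7, which binds the active receptor and brings ubiquitin ligases to it (NCBI Gene 17131, chromosome 18), was at 1.90 RPKM in mutants and 0.994 RPKM in controls, a ratio of 1.91 that shrank to a log2 difference of 0.54 with 1 RPKM added. Skil, a co-repressor that binds Smads (NCBI Gene 20482, chromosome 3, 31095058 to 31122923), was at 2.02 RPKM in mutants and 1.31 RPKM in controls, a ratio of 1.54. Both Smad7 and Skil are known as direct targets of TGF-beta that feed back on it. Smad6, which mainly restrains the BMP branch (NCBI Gene 17130, chromosome 9, 63953076 to 64022085), was lowest in both groups, at 0.596 RPKM in mutants and 0.576 RPKM in controls, a ratio of 1.04. The 3 inhibitors summed to 4.52 RPKM in mutants and 2.89 RPKM in controls. Smad7 was at 3.18 times Smad6 in mutants and 1.73 times in controls.

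**Figure D2:**
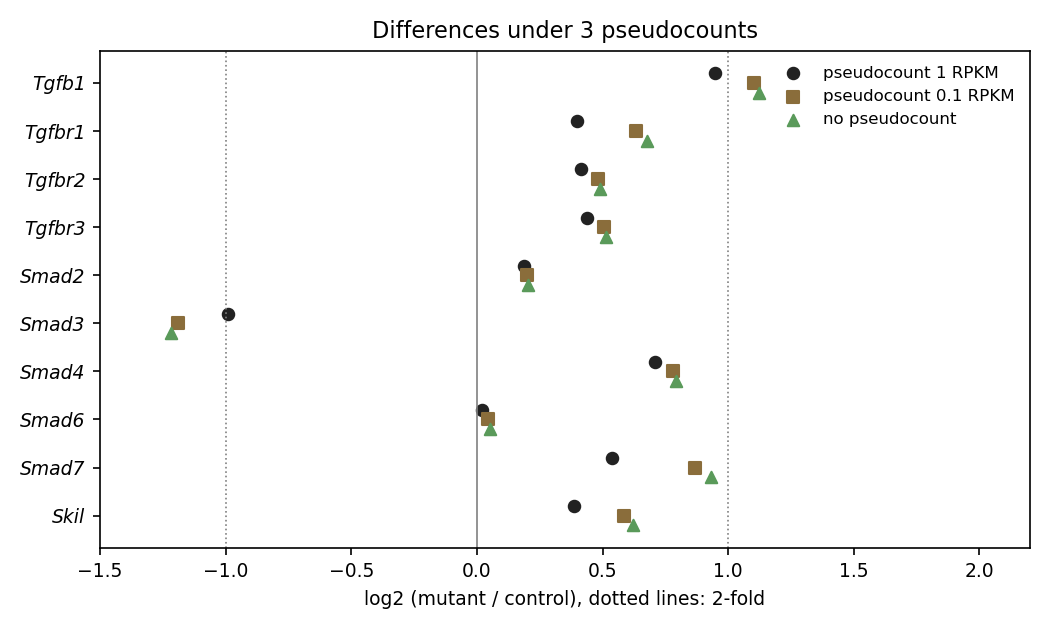
Log2 of mutant over control (horizontal axis) for each gene (rows), from the values with 1 RPKM added (circles), with 0.1 RPKM added (squares) and as deposited (triangles); dotted lines mark 2-fold. All 10 genes keep their side of 0, and Tgfb1 at 1.12 and Smad3 at -1.22 pass 2-fold as deposited.

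Depth differed strongly between these genes because their levels and lengths do. If the gene models were as long as the longest coding transcript in GENCODE M21, the values would amount to about 3234 reads per library in mutants and 2369 in controls for Smad2, and to 419.8 and 824 reads in mutants and controls for Smad3. For Tgfb1, with a transcript of 2175 bases, they would amount to 499.6 reads in mutants and 193 in controls. For Smad6 they would amount to only 49.8 reads in mutants and 40.3 in controls, so its near-equal values rest on the fewest reads of the set. These figures use the small offset in the deposited values as the worth of 1 read, and they bear on counting error only, not on the spread between animals.

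**Figure D3:**
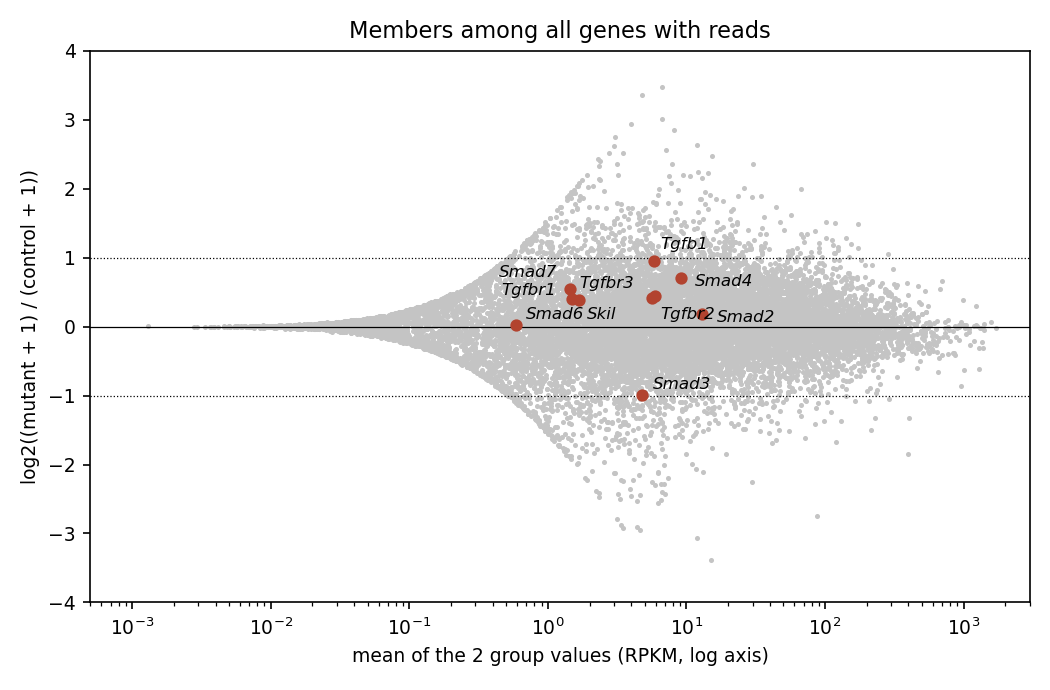
Mean of the 2 group values in RPKM (horizontal log axis) against log2((mutant + 1) / (control + 1)) (vertical axis) for every gene with reads (grey) and the 10 members (red, named); dotted lines mark 2-fold, and 1 gene lies outside the axes. The members lie inside the grey cloud, Tgfb1 at 0.95 near its upper dotted line and Smad3 at -0.99 at the lower one.

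The complex of Mettl3 is known to write m6A mostly within GGAC followed by a base other than G, and these letters were counted on the sense strand of the longest coding transcript of each gene in GENCODE M21. The mark itself was not measured here. Over 12257 genes with reads and a coding transcript, the median density was 3.65 matches per kb, and over the 10 genes it was 3.15. Tgfb1 had the highest density of the 10, with 15 matches or 6.90 per kb (percentile 95.3 of those genes). Smad3 had the lowest, with 9 matches or 1.77 per kb (percentile 8.49). Tgfbr1 came next to Smad3 with 1.91 per kb, and Skil and Smad2 followed with 2.08 and 2.47 per kb. Smad7, Smad6 and Smad4 lay between 3.55 and 3.74 per kb, and Tgfbr2 and Tgfbr3 at 3.34 and 2.96 per kb. Whether density bears on the differences was not tested. The sites with GGACT, the form favoured by the enzyme complex, are printed for the 2 genes at the ends of the range, with 10 bases on each side and GGACT in capitals; positions count from base 1 of the transcript.
Tgfb1 transcript base 319: agagacgtggGGACTtcttggcact
Tgfb1 transcript base 363: caggacctgaGGACTccagacagcc
Tgfb1 transcript base 745: aaattattcaGGACTatcacctacc
Tgfb1 transcript base 952: gccagccgcgGGACTctccacctgc
Tgfb1 transcript base 1170: agcccgaagcGGACTactatgctaa
Smad3 transcript base 3078: gatggtctgtGGACTgctgcttcag
Smad3 transcript base 4873: gggctggtgtGGACTcttgtttagg

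Tgfb1 thus held 5 such sites in 2175 bases and Smad3 held 2 in 5090 bases. The remaining genes had between 2 GGACT sites, in Smad6, and 10, in Tgfbr2.

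The other genes of the pathway were described by role, in 8 lists with 110 genes. Of these, 92 had reads, and 52 were higher and 40 lower in mutants, with a median log2 difference of 0.06. By the 2-fold rule with 1 RPKM added, 4 were higher and 1 lower, against 3.67% and 3.47% of all genes with reads. From the values as deposited, 24 of the 92 were 2-fold apart, against 25.1% of all genes with reads.

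In the list of ligands of the family, 6 genes were higher and 6 lower of 12 with reads, and none was 2-fold apart with 1 RPKM added. Bmp1, a protease gene rather than a ligand gene, is counted among the higher ones. Tgfb2 and Tgfb3, the other TGF-beta isoforms, were at 0.0248 and 1.18 RPKM in mutants, against 0.0929 and 0.915 RPKM in controls, so Tgfb1 had the highest value of the 3 isoform genes in both groups. The highest ligand list genes were Gdf3, at 10.6 RPKM in mutants and 18.2 RPKM in controls, and Bmp1, a protease that processes matrix and latent TGF-beta binding proteins, at 10.9 RPKM in mutants and 5.51 RPKM in controls. Of 9 genes for release of latent TGF-beta with reads, 5 were higher and 4 lower. Lrrc33 (Nrros), which anchors latent TGF-beta 1 on myeloid cells, was the highest of that list, at 180 RPKM in mutants and 141 RPKM in controls. Its family member Lrrc32, which does the same on regulatory T cells, was at 0.536 RPKM in mutants and 0.168 RPKM in controls, and the binding protein gene Ltbp3 was at 7.19 RPKM in mutants and 8.90 RPKM in controls.

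Of 8 other receptor genes of the family with reads, 6 had the higher value in mutants and 2 the lower. None of them was 2-fold apart with 1 RPKM added. As deposited, Acvr2a, Acvr2b and Bmpr2, named after their values were seen, were 2.07, 2.38 and 2.96 times higher in mutants. Acvr1b was 8.26 times higher in controls. By that measure, 25.1% of all genes with reads were 2-fold apart. Eng (endoglin), a co-receptor, was far above the 3 receptor genes described above, at 132 RPKM in mutants and 124 RPKM in controls. Bambi, a decoy receptor without a kinase, was at 7.41 RPKM in mutants and 3.71 RPKM in controls. Acvr1b, the activin type I receptor that also acts through Smad2 and Smad3, was at 0.158 RPKM in mutants and 1.31 RPKM in controls and lay nearest in its list to the 2-fold line on the lower side; it is named after its values were seen. Of the Smad genes of the BMP branch, Smad1 was at 9.12 RPKM in mutants and 5.71 RPKM in controls. Smad5 was at 4.99 RPKM in mutants and 6.17 RPKM in controls, and Smad9 had no reads. Bmpr1a, Bmpr1b, Acvrl1 and Tdgf1 of the receptor list also had no reads.

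Adaptors, co-repressors and co-activators of Smads had 9 higher and 5 lower of 14, none 2-fold apart with 1 RPKM added. Ski, the relative of Skil, was at 3.22 RPKM in mutants and 3.93 RPKM in controls, so Skil was at 0.629 times Ski in mutants and 0.335 times in controls. Fkbp1a, which holds the type I receptor inactive without ligand, was at 158 RPKM in mutants and 143 RPKM in controls, and Snw1 was at 154 RPKM in mutants and 140.3 RPKM in controls. Genes of receptor and Smad turnover had 10 higher and 5 lower of 15 with reads, and Wwp1, a ubiquitin ligase that Smad7 brings to Tgfbr1, was 2-fold higher at 3.87 RPKM in mutants and 1.24 RPKM in controls. Its relatives Smurf1 and Smurf2 were at 2.04 and 2.89 RPKM in mutants, against 1.47 and 3.30 RPKM in controls. By the mean of both groups the most abundant genes of the list were Stub1, at 255 RPKM in mutants and 225 RPKM in controls, and Strap, at 174 RPKM in mutants and 162 RPKM in controls. Uchl5, a deubiquitinase gene, was above Strap in controls, at 141 RPKM in mutants and 169.96 RPKM in controls. The non-Smad branch had 4 higher and 7 lower of 11, with Cdc42 at 138 RPKM in mutants and 146 RPKM in controls and Rhoa at 83.9 RPKM in mutants and 88.4 RPKM in controls. Map3k7, a kinase gene named after its values were seen, was at 3.28 RPKM in mutants and 1.14 RPKM in controls. Its log2 difference with 1 RPKM added was 0.998, just short of 2-fold higher.

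Genes listed as targets of TGF-beta in various cell types had 11 higher and 10 lower of 21 with reads. With 1 RPKM added, 3 of the 21 were 2-fold higher and 1 was 2-fold lower, against 3.67% and 3.47% of all genes with reads. Bhlhe40, a transcriptional repressor gene, was at 20.3 RPKM in mutants and 4.93 RPKM in controls. Tgfbi, a matrix protein gene named for its induction by TGF-beta, was at 20.5 RPKM in mutants and 8.41 RPKM in controls. Cdc25a, a cell cycle phosphatase gene that TGF-beta represses in epithelial cells, was at 6.35 RPKM in mutants and 2.58 RPKM in controls. Jun, an AP-1 subunit gene, was at 9.48 RPKM in mutants and 20.8 RPKM in controls. Myc and Tsc22d1 had the highest levels of the list, at 134 and 119.98 RPKM in mutants, against 158 and 149 RPKM in controls. Cdkn1c, the CDK inhibitor p57 linked to HSC quiescence, was at 39.8 RPKM in mutants and 70.2 RPKM in controls, and Cdkn2b, a classical target in epithelial cells, had no reads. Cdkn1c is named after its values were seen.

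**Figure D4:**
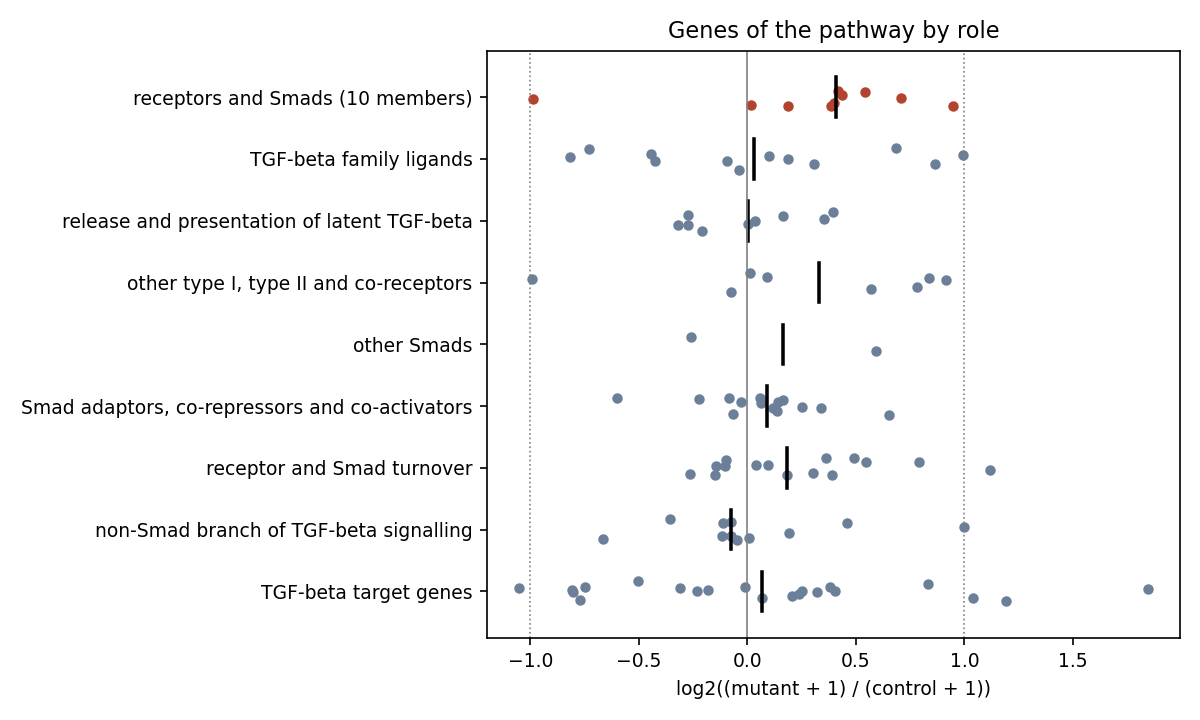
Log2((mutant + 1) / (control + 1)) (horizontal axis) of each gene with reads (points, spread vertically at random within a row) in the 10 members (red, top row) and 8 lists of other pathway genes (blue-grey); black bars are medians and dotted lines mark 2-fold. The members' median is 0.41, and the target list spreads from Jun at -1.05 to Bhlhe40 at 1.85.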

How the data were processed

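RNA-seq libraries of 4 mutant and 3 control HSC samples were sequenced as paired reads of 100 bases, per the labels' protocols. The authors deposited RPKM, with a single column for each group per the file headers; the way libraries were combined, the aligner and the annotation were not given in the sources used. The submitters' processing notes name mm10, Picard and edgeR. A ratio of 0.841 between the columns in 8499 genes (relative tolerance 2e-06) was read as an added offset, worth 0.0349 RPKM at 1 kb in mutants and 0.0414 RPKM in controls, and those genes as without reads. Differences are log2((mutant + 1) / (control + 1)), which understates the change of low genes; 2-fold and 1.5-fold are rules of size. Of 23038 gene identifiers, 22959 (99.7%) were in RefSeq. The members and lists were chosen with earlier results of these data known. All members were described; other pathway genes were named when 2-fold apart or among the 2 highest of their list, and further ones are isoforms, relatives, cell type markers or genes chosen after their values were seen. The level band of 0.5 to 15 RPKM was set after seeing the data. Offset detection and the fold rule were run on simulated data as a check of the code. The simulation held the same kind of offset that the detection looks for, changes larger than 2-fold and no spread between animals. It therefore does not bear on the differences of the members. Python 3.11.15, pandas 2.3.3 and NumPy 2.4.6 were used.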

Additional observations from a re-analysis of the deposited data

How the results depend on the processing

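All 10 members kept the sign of their difference under the other pseudocounts and the rescalings run; the filters on low values cannot change it. The median log2 difference of the members ran from 0.39 with the mutant column divided by the median ratio to 0.57 without a pseudocount. Of 51 recomputed member values, 42 stayed within 1.5 times. Those 42 include the values under the filters of at least 1 RPKM (9 members) and 10 RPKM (2 members). A filter only drops genes, so these values could not move and say nothing on stability. The 9 values that moved were Tgfbr1, Smad7, Skil and Smad6 under lower or no pseudocount and Smad6 (0.01) under the median ratio. The count of members 2-fold apart, 0 with a pseudocount of 1 RPKM, was 2 with 0.1 RPKM and 2 with none (Tgfb1 and Smad3), and 1 (Smad3) with the median ratio; 3 were apart at 1.5-fold. Over all 14539 genes with reads, 1038 (7.14%) were 2-fold apart, 2855 with 0.1 RPKM and 3655 (25.1%) without a pseudocount. With at least 10 RPKM in 1 group the count was 385 of 6607. By the 1.5-fold rule it was 3399 of 14539 (23.4%). Of the other pathway genes, 5 of 92 were 2-fold apart, 18 of 92 with 0.1 RPKM and 24 of 92 without a pseudocount. The counts were 3 of 36 with at least 10 RPKM in 1 group and 25 of 92 by the 1.5-fold rule. These settings change which low genes can pass. With at least 10 RPKM in 1 group 2 members were left. No paired analysis was possible because each group has a single column, and leaving out each library was not run for the same reason.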
